A study of Mus musculus with 2 samples.

Results

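Cells that carried the monocyte transcripts Ly6c2 and Ccr2 together with the macrophage transcripts C1qa, C1qb and C1qc, called Ly6c2 C1q cells here, were examined in liver tumours of Crtc2+/+ and Crtc2-/- mice. They were chosen by their own transcripts. A barcode was taken with at least 1 UMI (unique molecular identifier, one captured RNA molecule) of Ly6c2, at least 1 of Ccr2 and at least 10 of C1qa, C1qb and C1qc together. It also had at most 2 UMIs of the Kupffer cell genes Clec4f, Vsig4 and Cd5l, at most 1 of Sox5, at most 1 of the cycling genes Mki67 and Top2a, and 0 of Cd3d, Cd3e, Cd3g and Cd79a. The rule found 310 of the 18786 kept barcodes, 220 of 9612 in the Crtc2+/+ library and 90 of 9174 in the Crtc2-/- library.

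Mice of both genotypes had been given the carcinogen diethylnitrosamine (DEN, 25 mg/kg, into the peritoneum) at 2 weeks of age, were fed a NASH (non-alcoholic steatohepatitis) diet from week 8 to week 26, and were killed after 26 weeks. Tumours from the liver were made into 1 droplet-based 3' single-cell library per genotype. The sources used here do not give the numbers of animals and tumours behind each library or the part of Crtc2 that the mutant lacks. Because each genotype had 1 library, genotype and library cannot be told apart, no test across samples was possible, and every interval below covers counting error only.

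Classical monocytes leave the blood through the chemokine receptor CCR2, carry the surface protein Ly6C, and in tissue lose Ly6C while they gain macrophage products such as the complement component C1q. Cells that hold both sets of transcripts are usually described as monocytes on the way to becoming macrophages. CRTC2 is a coactivator of CREB, the transcription factor that answers cyclic AMP.

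The Crtc2 gene itself (GRCm38 chr3:90254163-90264125, plus strand) was sparsely captured. Over all kept barcodes it had 650 UMIs in the Crtc2+/+ library, 7.99 CPM (a gene's UMIs scaled to the sum over all genes; 95% exact Poisson interval 7.39 to 8.63), and 436 UMIs in the Crtc2-/- library, 5.59 CPM (5.08 to 6.14). In the Ly6c2 C1q cells there were 19 and 5 UMIs. Reads from a part of the gene that was not deleted would be counted too, so these values do not check the genotype labels.

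The Ly6c2 C1q cells were compared with 2 other groups from the same libraries. C1q-low monocytes (205 Crtc2+/+ and 273 Crtc2-/- cells) met the same limits but had at most 4 C1q UMIs, had Csf1r and Lyz2, and had no Siglech, Ncr1 or Klrb1c and at most 1 UMI of Flt3. Ly6c2-negative macrophages (3984 and 368 cells) had at least 10 C1q UMIs, 0 of Ly6c2 and any number of Ccr2. Because Ly6c2 and C1q defined all 3 groups, differences between them are given as a description. Median depth was 10088 UMIs in the Crtc2+/+ and 12318 in the Crtc2-/- Ly6c2 C1q cells, above the monocytes (8370 and 9190) and the macrophages (8303 and 10550.0). The 2 libraries shared 29 barcodes, none of them of a Ly6c2 C1q cell.

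The cells carried general myeloid transcripts that the rule had not used. Csf1r, the receptor for macrophage growth factor, was seen in 215 of 220 and 86 of 90 cells, at 454 and 459 CPM. Fcer1g, the shared signalling chain of Fc receptors, was seen in all 220 and all 90. C1q content ran from 10 UMIs upward with medians of 76.5 and 68, against 132 and 129 in the macrophages.

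Part of the group lay near the limits of the rule. Ly6c2 was at exactly 1 UMI in 85 of the 220 Crtc2+/+ and 31 of the 90 Crtc2-/- cells. These cells held 553 and 1717 CPM of Plac8, a monocyte transcript not used by the rule, against 1521 and 2687 over all Ly6c2 C1q cells. Cells just outside, with Ccr2 but no Ly6c2, held 93.2 and 549 CPM. At the C1q limit, 6 Crtc2+/+ cells with 10 to 12 C1q UMIs held 4906 CPM of Plac8, and 9 cells just outside with 7 to 9 held 3204. The corresponding Crtc2-/- values were 4012 CPM (8 cells) and 5412 CPM (11 cells).

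Free RNA in the droplets sets a floor under a rule of 1 UMI. With every cell reduced at random to 3000 UMIs, a Ly6c2 UMI was found in 3.59% of all Crtc2+/+ cells within the other limits that had 10 or more C1q UMIs (95% Clopper-Pearson interval 3.05 to 4.196%), and in 11.9% in the Crtc2-/- library (9.08 to 15.2%). B cells, which should lack Ly6c2, gave 1.94% (0.716 to 4.18%) and 2.02% (1.18 to 3.22%) at the same depth, and 2.13% and 3.57% unthinned at median depths of 3615 and 3964 UMIs. The Crtc2-/- share lay above the B cell interval. The Crtc2+/+ share lay within it and is not separable from the free RNA level at this depth. How many of the Crtc2+/+ cells hold Ly6c2 of their own was not tested.

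Transcripts of other cell types were present in a minority. Scrublet called 10 of the 220 cells (4.55%) and 4 of the 90 (4.44%) doublets, against 0 of 205 and 1 of 273 monocytes and 25 of 3984 and 4 of 368 macrophages. The monocyte limits had already left out cells with Siglech, Ncr1 or Klrb1c, so the monocyte counts are not a like comparison. Siglech, a plasmacytoid dendritic cell gene, was seen in 14 and 3 cells, of which 4 and 2 were called doublets. Ncr1 or Klrb1c, genes of natural killer cells, was seen in 8 Crtc2+/+ cells, 4 of them called doublets, and in 0 of the 90 Crtc2-/- cells. Without the cells that held transcripts of such types, 193 and 81 remained, and values for these are given where a result moves.

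The Ly6c2 C1q cells made up a larger part of the Crtc2+/+ library, but a larger part of the C1q cells in the Crtc2-/- library. They were 2.29% of Crtc2+/+ barcodes (95% Clopper-Pearson interval 1.999 to 2.61%) and 0.981% of Crtc2-/- barcodes (0.79 to 1.204%). Among cells with 10 or more C1q UMIs within the other limits they were 220 of 4265 (5.16%; 4.51 to 5.87%) and 90 of 467 (19.3%; 15.8 to 23.1%). The order was the same in cells of 5000 to 20000 UMIs, 5.55% and 19.9%. It was also the same for cells that kept both a Ly6c2 and a Ccr2 UMI after thinning, 2.61% and 9.94%.

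Among all cells with both Ly6c2 and Ccr2, high C1q was more frequent in the Crtc2+/+ library. Of 551 such Crtc2+/+ cells, 55.9% had 0 to 4 C1q UMIs, 4.17% had 5 to 9, 15.1% had 10 to 49 and 24.9% had 50 or more. Of 680 Crtc2-/- cells the shares were 84.3%, 2.500%, 5.74% and 7.500%. The intervals of the libraries did not overlap in the bands of 0 to 4, 10 to 49 and 50 or more. The Crtc2+/+ library also held more cells with 10 or more C1q UMIs within the other limits, 4265 against 467. After thinning, its Ly6c2 share among these was not separable from the free RNA level. The part of free RNA in the upper bands was not tested. The lowest band is not all monocytes, since 205 of its 308 Crtc2+/+ cells and 273 of its 573 Crtc2-/- cells met the monocyte limits.

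**Figure D1:**
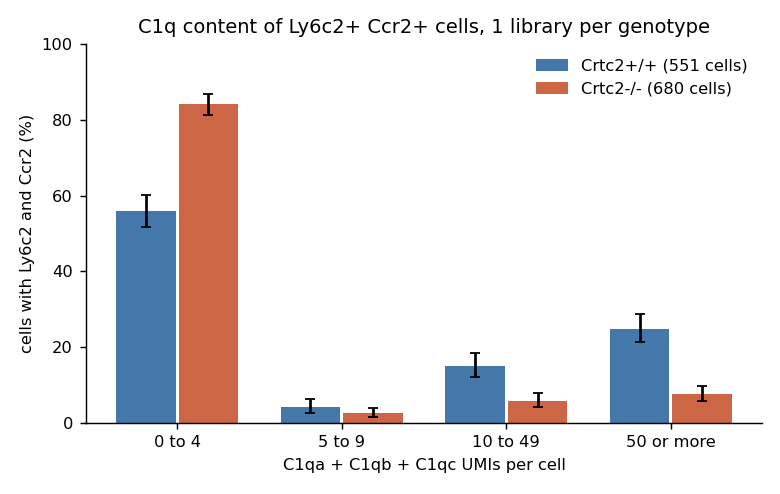
Share of cells with at least 1 Ly6c2 and 1 Ccr2 UMI (y axis, percent) by their C1qa, C1qb and C1qc UMIs together (x axis), for the Crtc2+/+ (551 cells) and Crtc2-/- (680 cells) library. Bars are shares with 95% Clopper-Pearson intervals, and the band of 50 or more holds 24.9% of the Crtc2+/+ and 7.50% of the Crtc2-/- cells. The part of free RNA in the upper bands was not tested.

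Relative to C1q-low monocytes, the Ly6c2 C1q cells held far less of the monocyte programme and more of the macrophage one. Plac8 was at 4688 CPM in Crtc2+/+ monocytes and 1521 in Ly6c2 C1q cells, and at 6140.02 and 2687 in the Crtc2-/- library. Plcb1, a phospholipase of G protein signalling, was at 343 and 31.2 CPM, and at 296 and 48.6. Fn1 (fibronectin), Chil3 (a chitinase-like protein), Ifitm6 and Vcan (versican) were the other genes furthest below monocytes in both libraries. In the other direction stood Ms4a7, Cd81, Cd72, Hpgds and Cadm1. Ms4a7, a membrane protein of macrophages, was at 69.99 CPM in monocytes and 507 in Ly6c2 C1q cells in the Crtc2+/+ library, and at 35.3 and 498 in the Crtc2-/- library. Cadm1, a cell adhesion molecule, was at 17.8 and 295 CPM, and at 20.9 and 242.

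Counts over the lists gave the same picture. A gene is counted here when log2(CPM + 10) differed by at least 1, which is 2-fold, among genes with at least 20 UMIs over both sums. In the Crtc2+/+ library 2% of 9640 genes were higher and 2.09% lower in Ly6c2 C1q cells than in monocytes. In the Crtc2-/- library 2.55% of 9228 genes were higher and 1.57% lower. Of 16 classical monocyte genes, 14 were lower in the Crtc2+/+ and 13 in the Crtc2-/- library, and 0 higher in either. The medians of their log2 ratios were -1.98 and -1.59. Of 23 genes of macrophage maturation, 5 and 12 were higher and 0 lower, with medians of 0.52 and 1.08. Of 13 MHC class II and costimulation genes, 5 and 4 were higher and 0 lower. H2-Aa, a class II chain that presents peptides to helper T cells, was at 2465 CPM in Crtc2+/+ monocytes and 8801 in Ly6c2 C1q cells, and at 3327 and 9536 in the Crtc2-/- library. This compared with 10788 and 9277 CPM in the macrophages, so this gene stood near the macrophage level.

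Relative to Ly6c2-negative macrophages, monocyte transcripts were higher in the Ly6c2 C1q cells. In the Crtc2+/+ library 1.08% of 13198 genes were higher and 0.576% lower in Ly6c2 C1q cells, and in the Crtc2-/- library 1.09% of 10200 genes were higher and 1.23% lower. Of the 16 classical monocyte genes, 13 and 12 were higher. S100a4, a calcium-binding protein of migrating leukocytes, was at 501 CPM in Ly6c2 C1q cells and 31.3 in macrophages of the Crtc2+/+ library, and at 403 and 78.98 in the Crtc2-/- library. F13a1, a coagulation factor subunit, was at 71.9 and 6.19 CPM, and at 181 and 15.04. Ahnak and Ly6i, the latter a neighbour of Ly6c2 in its gene family, were with these among the genes furthest above macrophages in both libraries. Negr1, Psd3, Cadm1, Lilra5 and Ptprm were furthest below. Negr1, a cell adhesion molecule, was at 97.5 CPM against 446 and at 88.7 against 429.8. Ly6i shares sequence with other Ly6 genes, so reads between these copies may have been split.

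**Figure D2:**
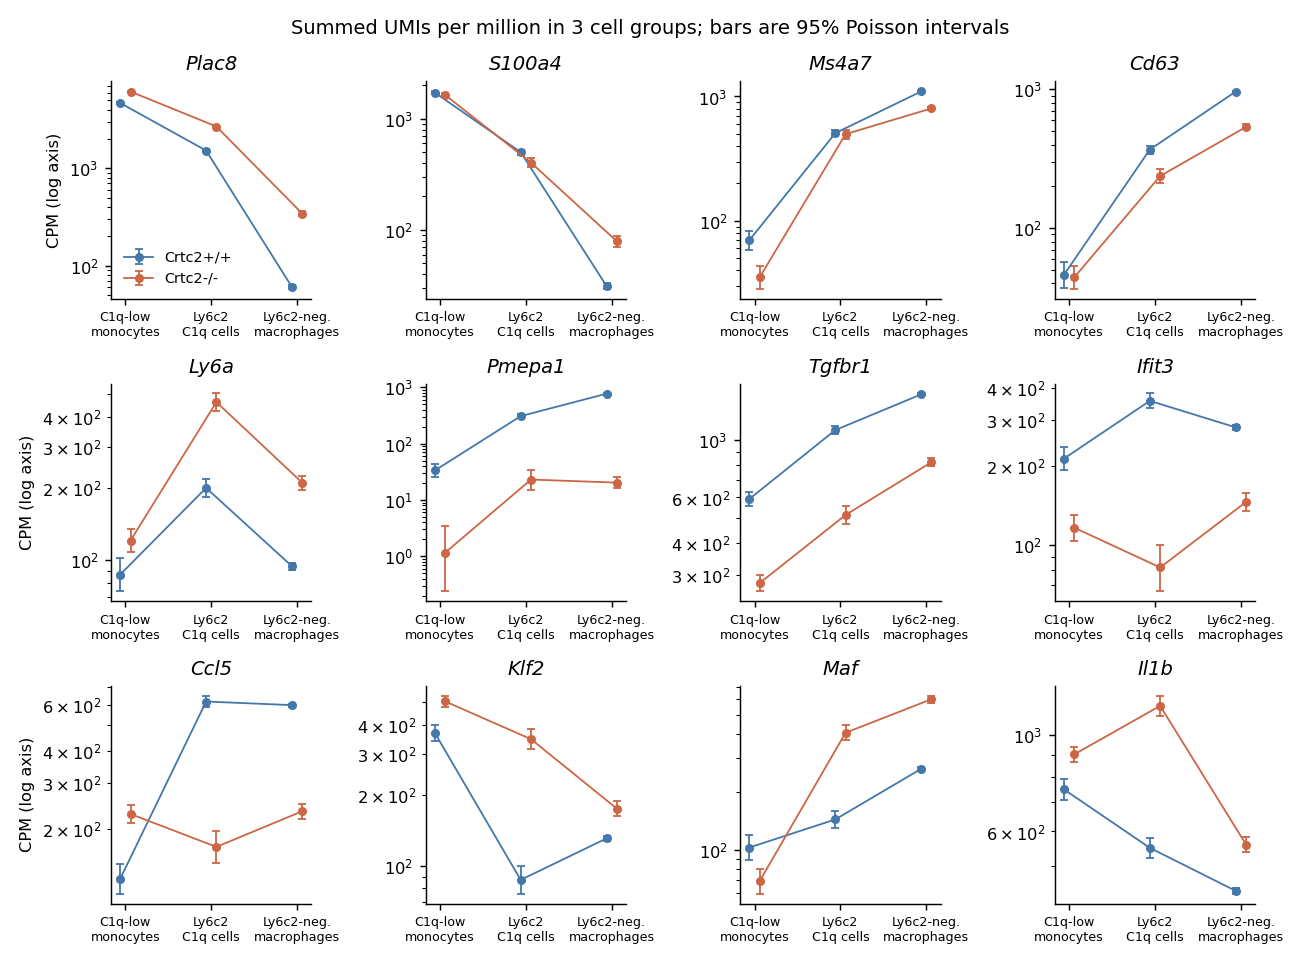
Level of 12 genes in CPM of summed UMIs (y axis, log scale) in C1q-low monocytes, Ly6c2 C1q cells and Ly6c2-negative macrophages (x axis) of each library. Points are sums over cells with 95% Poisson intervals. Plac8 is lower in each group in turn in both libraries, and Ly6a is highest in the Ly6c2 C1q cells in both.

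A position between the 2 groups was computed for each gene that differed at least 4-fold between monocytes (position 0) and macrophages (position 1), on the linear CPM scale and without the genes of the rule. The median position was 0.57 over 188 genes in the Crtc2+/+ library and 0.56 over 160 genes in the Crtc2-/- library, and 186 and 157 of the genes lay between 0 and 1. Genes higher in monocytes had median positions of 0.75 (97 genes) and 0.77 (67 genes), and genes higher in macrophages had 0.40 (91 genes) and 0.41 (93 genes). Monocyte transcripts were thus further toward the macrophage level than macrophage transcripts were, in both libraries. Vcan stood at 0.93 and 0.96 and S100a4 at 0.72 and 0.79. Cd63, a lysosomal tetraspanin, stood at 0.35 and 0.39, and Negr1 at 0.21 and 0.19. With at least 2 UMIs of both Ly6c2 and Ccr2 the medians were 0.46 and 0.43. The quartiles of the genes ran from 0.65 to 0.81 on the monocyte side and from 0.32 to 0.48 on the macrophage side in the Crtc2+/+ library. In the Crtc2-/- library they ran from 0.70 to 0.89 and from 0.28 to 0.56. Whether the group holds a mixture of the 2 other groups was not tested.

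**Figure D3:**
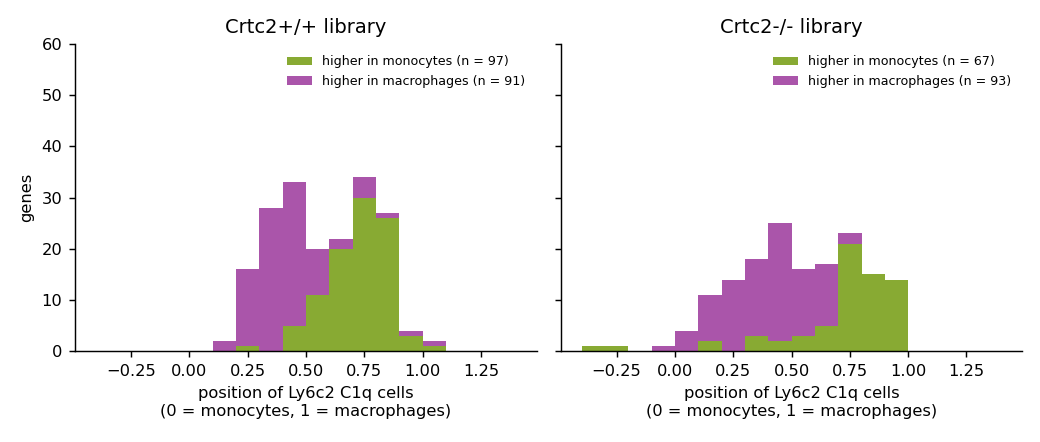
Number of genes (y axis) by the position of Ly6c2 C1q cells between C1q-low monocytes at 0 and Ly6c2-negative macrophages at 1 (x axis), for each library. Genes higher in monocytes centre on 0.75 and 0.77, and genes higher in macrophages on 0.40 and 0.41.

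Within the group, cells with more C1q per UMI held less of the monocyte transcripts. The cells of both libraries were ordered together by C1q CPM and divided into 3 bands of near equal size. The lowest band held 66 Crtc2+/+ and 38 Crtc2-/- cells and the highest 78 and 25. Plac8 was at 2681, 1558 and 617 CPM from the lowest to the highest band in the Crtc2+/+ library. In the Crtc2-/- library it was at 4326, 2169 and 1152. Ms4a7 ran the other way, from 189 to 803 and from 166 to 1032 CPM, and Apoe, the lipid carrier, from 6401 to 21258 and from 6169.8 to 15682. Of 15 classical monocyte genes with enough UMIs, 14 and 15 were lower in the highest than in the lowest band, and of 23 maturation genes 21 and 23 were higher. The median over all genes was -0.07 in both libraries. The rule itself had used C1q, so the bands are given as a description.

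Some genes ran differently along C1q in the 2 libraries. Il1b, the inflammatory cytokine, was at 487, 685 and 467 CPM in the Crtc2+/+ bands and at 1623, 1193 and 537 in the Crtc2-/- bands. Klf2, a transcription factor of quiescent leukocytes and endothelium, was at 34.7, 106 and 108 CPM and at 381, 499 and 123. For both genes the libraries were closest in the band of highest C1q. Pmepa1 was low in every Crtc2-/- band (13.7 to 33.01 CPM), while in the Crtc2+/+ bands it ran from 108 to 503. Differences between bands were not tested.

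Between genotypes, most genes of the Ly6c2 C1q cells differed by less than 2-fold. Of 9405 genes with at least 20 UMIs, 1.48% were higher and 1.33% lower by at least 2-fold in the Crtc2-/- cells, 139 and 125 genes, and the median log2 ratio of all genes was -0.02. With each gene's highest cell left out, 87 genes were higher and 139 lower, so 1 cell decided part of the higher calls.

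**Figure D4:**
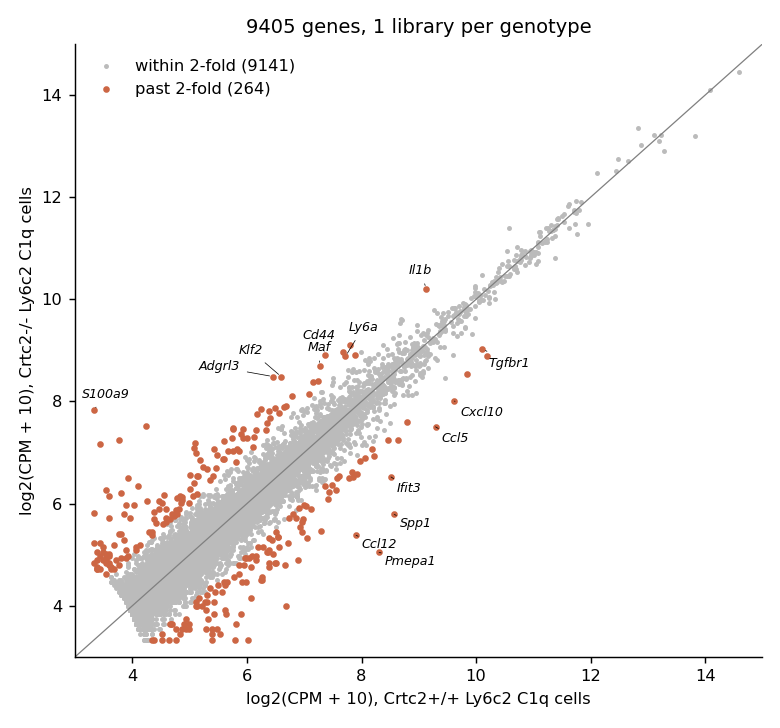
Level of 9405 genes in Ly6c2 C1q cells as log2(CPM + 10), Crtc2+/+ on the x axis and Crtc2-/- on the y axis, with the line of equality. Orange points are the 264 genes past 2-fold. Pmepa1, Ccl12 and Ifit3 lie below the line and Klf2, Adgrl3 and Il1b above it, and nearly all S100a9 UMIs come from 1 cell.

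The type I interferon response was lower in the Crtc2-/- cells. This programme is switched on when interferon alpha or beta activates transcription factors that bind a short element (ISRE) in the promoters of antiviral genes. Of 27 genes measured, 12 were at least 2-fold lower and 0 higher, against 1.33% and 1.48% of all genes, and all 27 log2 ratios were below 0. Their median was -0.79, and it lay between -0.93 and -0.77 under every other setting tried. Ifit3, which helps block viral RNA translation, was at 356 CPM (333 to 380.1) in 119 of 220 Crtc2+/+ cells and 81.9 CPM (66.3 to 99.97) in 39 of 90 Crtc2-/- cells. The ratio was 0.23 (0.184 to 0.284). Rsad2, the antiviral enzyme viperin, was at 146 (132 to 162) and 34.1 CPM (24.4 to 46.5). Isg15, a ubiquitin-like modifier, was at 435 (409 to 461) and 183 CPM (159.7 to 209.6). The share of cells with an Isg15 UMI was nearly the same, 38.6% and 38.9% after thinning to 3000 UMIs (59.1% and 68.9% unthinned), and for Ifit3 it was 34.1% and 20%. B cells gave 1.29% and 2.74% for Isg15. Rtp4, Slfn5 and Ifih1 had log2 ratios of -0.02, -0.09 and -0.17, so the difference was not even across the list.

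The promoters of the 3 interferon genes described above are shown as examples from the list. They are RefSeq sequences (GRCm38.p6), 250 bases before to 50 after the start site, 5' to 3' on the gene's strand, with matches to the ISRE core, the letters GAAA and again GAAA with 2 bases of any kind between, on either strand in capitals (read TTTC on the other strand).
Ifit3 (chr19:34583279-34583578, plus strand): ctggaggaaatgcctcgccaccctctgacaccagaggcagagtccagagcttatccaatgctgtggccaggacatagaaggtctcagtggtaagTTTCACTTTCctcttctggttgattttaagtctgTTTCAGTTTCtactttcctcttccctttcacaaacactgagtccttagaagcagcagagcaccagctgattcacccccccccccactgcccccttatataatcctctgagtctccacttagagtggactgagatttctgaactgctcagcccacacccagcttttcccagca
Rsad2 (chr12:26456403-26456702, minus strand): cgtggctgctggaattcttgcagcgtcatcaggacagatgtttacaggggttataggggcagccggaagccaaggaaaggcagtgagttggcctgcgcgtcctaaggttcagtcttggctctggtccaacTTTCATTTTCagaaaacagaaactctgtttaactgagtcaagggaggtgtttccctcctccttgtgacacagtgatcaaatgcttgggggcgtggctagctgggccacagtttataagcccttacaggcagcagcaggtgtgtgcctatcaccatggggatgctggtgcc
Isg15 (chr4:156200769-156201068, minus strand): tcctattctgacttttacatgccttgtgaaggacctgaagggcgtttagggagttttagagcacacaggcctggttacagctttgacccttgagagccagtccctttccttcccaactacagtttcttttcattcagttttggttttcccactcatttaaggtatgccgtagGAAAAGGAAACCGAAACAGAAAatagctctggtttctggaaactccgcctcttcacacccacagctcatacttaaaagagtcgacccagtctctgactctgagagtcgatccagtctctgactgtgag
Ifit3 holds 2 matches, Rsad2 1 and Isg15 3 that overlap. The promoters of Ifit2, Oasl1 and Cmpk2, genes of the same list that are not shown, held 0. Of 22 list genes with a promoter in the RefSeq table, 13 held a match in at least 1 promoter, against 3.99% of all 27025 genes. A match describes these letters and does not show binding. The cyclic AMP element TGACGTCA, which is its own reverse complement, was in 0 of the 22 and in 2.03% of all genes.

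The same list was lower in the Crtc2-/- library in the other groups too, by less at the median. The median log2 ratio was -0.55 in C1q-low monocytes and -0.44 in Ly6c2-negative macrophages, against -0.01 over all genes in monocytes. Ifit3 had log2 ratios of -1.99 in the Ly6c2 C1q cells, -0.83 in monocytes and -0.90 in macrophages, and Rsad2 -1.82, -0.54 and -0.37. In T cells Ifit3 was at 276 CPM in the Crtc2+/+ and 41.1 in the Crtc2-/- library, so the lower level was not limited to myeloid cells. In the Crtc2+/+ library the summed level of Ifit3 was highest in the Ly6c2 C1q cells (214 CPM in monocytes, 356 in Ly6c2 C1q cells, 282 in macrophages). In the Crtc2-/- library the summed level was lowest there (116, 81.9 and 146 CPM), but the thinned share of cells with an Ifit3 UMI was not (16.9%, 20% and 17.9%; unthinned 31.5%, 43.3% and 42.9%).

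**Figure D5:**
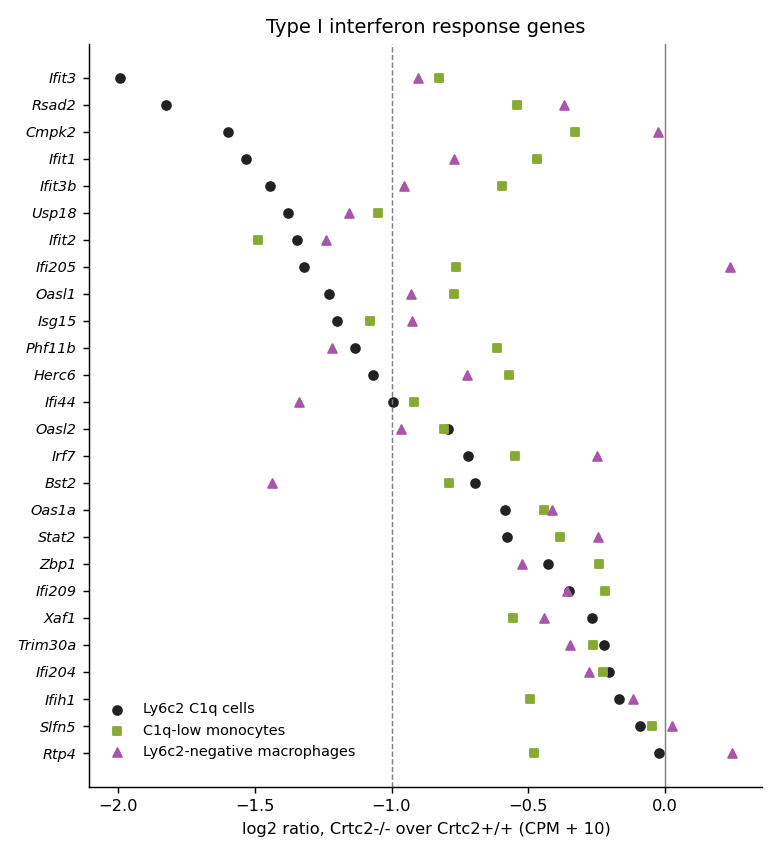
Log2 ratio of Crtc2-/- over Crtc2+/+ CPM + 10 (x axis) for 26 of the type I interferon response genes (y axis) in 3 cell groups, shown by point shape. The dashed line marks 2-fold. All 26 points of the Ly6c2 C1q cells lie left of 0, and 12 lie past the dashed line.

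Genes that answer interferon gamma did not share this. Of 20 measured, 1 was lower past 2-fold and 0 higher, against 1.33% and 1.48% of all genes, with a median of 0.12. The lower one was Cxcl10, a chemokine for T cells that both interferons induce, at 778 (744 to 813) and 247 CPM (219.7 to 277). Cxcl9 was at 435 and 408 CPM, and Ciita, the switch of MHC class II, at 209 and 296. Of 13 MHC class II and costimulation genes 0 passed 2-fold in either direction. Cd74, the class II chaperone, was at 17381 and 17497 CPM.

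Among TGF-beta genes, the receptor Tgfbr1 and the target Pmepa1 were lower in the Crtc2-/- cells. TGF-beta binds the receptor kinases Tgfbr1 and Tgfbr2, which activate SMAD proteins, and Pmepa1, Smad7, Ski and Skil hold the pathway in check. Pmepa1 showed the largest difference of the list, 307 CPM (285 to 329; 116 of 220 cells) and 23.03 CPM (15.2 to 33.5; 9 of 90 cells), a ratio of 0.0751 (0.0491 to 0.11). B cells held 17.8 and 13.6 CPM and T cells 94.3 and 38.8. Tgfbr1 was at 1094 (1053 to 1136) and 513 CPM (473 to 556), Ski at 138 and 72.5, Smad7 at 59.9 and 28.99, and Skil at 175 and 101. The ligand Tgfb1 was at 255 and 316 CPM and the extracellular target Tgfbi at 686 and 713. Of 13 genes, 2 (Pmepa1 and Tgfbr1) were lower past 2-fold and 0 higher, against 1.33% and 1.48% of all genes. The median of the list was -0.40. Tgfbr1 was also lower in Crtc2-/- monocytes and macrophages, with log2 ratios of -1.05 and -0.86.

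Pmepa1 belonged to a set of 5 genes already known to be low in Crtc2-/- macrophages of these libraries, which makes their direction here no independent evidence. Lhfpl2, a tetraspan membrane protein, was at 92.3 CPM in 88 cells and 5.97 in 4. Dach1, a transcriptional repressor, had 137 UMIs in 30 Crtc2+/+ cells and 0 in the Crtc2-/- cells, and Stard13 113 and 0. Tnfsf13b, the B cell survival factor BAFF, was at 66.3 and 12.8 CPM. All 5 were lower in monocytes than in Ly6c2 C1q cells and highest in macrophages in the Crtc2+/+ library. Dach1 was at 4.999 and 0.388 CPM in monocytes and 183 and 1.504 in macrophages. The Crtc2+/+ Ly6c2 C1q cells lay between, at 54.7 CPM.

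Other genes among the lowest were Ccl12, Olfml3, Tnfsf8, Gdf3 and Cd69. Ccl12, a ligand of CCR2, was at 229.7 CPM in 48 cells, with 181 of 575 UMIs in 1 cell, and at 31.6 in 11 cells. Its log2 ratio of -2.53 was -2.46 without the highest cell of each library. Olfml3, a secreted protein of tissue macrophages, was at 109 and 19.6 CPM, and Tnfsf8, the ligand of CD30, at 57.5 and 7.68. Gdf3, a ligand of the TGF-beta family, was at 66.7 and 12.8 CPM, and Cd69, a marker of recent activation, at 91.1 and 17.9.

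Inflammatory cytokines and chemokines went both ways. Of 19 measured, 4 were higher past 2-fold (Il1b, Il10, Cxcl2 and Ccl2) and 2 lower (Ccl5 and Ccl12), against 1.48% and 1.33% of all genes. The median of the list was 0.35. Il1b was at 550.02 CPM (521 to 579.9) in 133 of 220 and 1167 CPM (1106 to 1231) in 60 of 90 cells. Thinned to 3000 UMIs, the shares of cells with an Il1b UMI were 40.5% and 36.7% (unthinned 60.5% and 66.7%), so the share of cells differed less than the level. B cells gave 1.94% and 3.81% after thinning. Ccl5, a chemokine that T cells also make in large amounts, was at 617 (587 to 649) and 171 CPM (149 to 197), while T cells held 6358 and 10464 CPM. All 25 Il10 UMIs of the Crtc2-/- cells came from 1 cell. Ccl2, the main monocyte attractant, was at 38.3 and 139 CPM, with 74 of 163 Crtc2-/- UMIs in 1 cell.

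Several transcription factors of myeloid cells were higher in the Crtc2-/- cells. Of 21 measured, 6 were higher past 2-fold and 0 lower, against 1.48% and 1.33% of all genes, with a median of 0.64, which was 0.31 with at least 2 UMIs of Ly6c2 and Ccr2. Klf2 was at 87.1 CPM (75.9 to 99.4; 54 cells) and 348 CPM (315 to 383; 48 cells), a ratio of 3.996 (3.38 to 4.73). Maf, which maintains tissue macrophages, was at 144 (129.7 to 159.9) and 404 CPM (369 to 442). Pparg, a lipid-sensing nuclear receptor, was at 62.3 (52.9 to 72.9) and 206 CPM (180.4 to 233). Nr4a1, Nr1h3 and Tfec were the others. The lineage factor Spi1 was at 598 and 597 CPM and Irf8 at 447 and 442, close to each other. Maf and Pparg were higher in the Crtc2-/- macrophages as well, with log2 ratios of 1.16 and 1.56, and Klf2 had 0.40 there and 0.44 in monocytes, against 1.88 in the Ly6c2 C1q cells. The share of cells with a Klf2 UMI after thinning was higher in the Crtc2-/- library in all 3 groups: 12.3% and 24.4% of Ly6c2 C1q cells, 11.1% and 23.6% of macrophages and 36.1% and 55.5% of monocytes. Unthinned, the shares were 24.5% and 53.3%, 20.8% and 48.6%, and 48.8% and 77.7%. Lymphocytes carry Klf2 too. After thinning, a Klf2 UMI was found in 47.9% and 54.2% of T cells and 86.1% and 88.6% of B cells. The part of free lymphocyte RNA in the Klf2 difference was not tested.

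A list of genes that answer cyclic AMP through CREB, for which CRTC2 is a coactivator, was higher at the median in the Crtc2-/- cells. The list also held Creb1 itself and the CRTC family genes Crtc1 and Crtc3. Of 15 measured, 2 (Nr4a1 and Pde4d) were higher past 2-fold and 0 lower, against 1.48% and 1.33% of all genes, with a median of 0.64 and a range of 0.43 to 0.76 over the other settings. The medians were 0.05 in monocytes and 0.04 in macrophages. Nr4a1, an immediate early nuclear receptor, was at 59.9 (50.7 to 70.3) and 148 CPM (126 to 171). Dusp1, a phosphatase that turns off MAP kinases, was at 172 (156 to 189) and 343 CPM (310.1 to 378). Of the other family members, Crtc3 was at 62.7 (53.3 to 73.3) and 93.8 CPM (77.1 to 113), and Crtc1 had 20 and 5 UMIs. Creb1 was at 98.3 and 79.3 CPM, and the DNA-PK catalytic subunit gene Prkdc at 29.2 and 25.6, each pair with overlapping intervals (86.4 to 111 and 64.01 to 97.2; 22.9 to 36.7 and 17.3 to 36.5). TGACGTCA was in the promoters of 2 of 14 genes of the list (Areg and Dusp1), against 2.03% of all genes. Some of these transcripts are also induced while tissue is taken apart. Of 14 immediate early and heat shock genes, 8 had log2 ratios above 0 and 6 below, with a median of 0.24. Among them Fos was at 367 and 594 CPM, and Ier3, the 1 past 2-fold, at 23.6 and 125. The part of tissue handling in the result was not tested.

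Some monocyte genes were higher in the Crtc2-/- cells. Plac8 was at 1521 (1473 to 1570.1) and 2687 CPM (2594 to 2783). Of the 16 classical monocyte genes, 3 were higher past 2-fold and 0 lower, against 1.48% and 1.33% of all genes. The 3 higher genes were F13a1, Gda and Thbs1, at 181, 154 and 124 CPM against 71.9, 49.5 and 32.8 in the Crtc2+/+ cells. Log2 ratios were above 0 for 9 of the 16 and below 0 for 7. Chil3 was among the 7, at 149.8 and 79.3 CPM. The median of the 16 genes was 0.44, and 0.023 without the cells that held transcripts of other types. It was 0.33 in monocytes and 0.76 in macrophages. Cd44, a receptor for hyaluronan, was at 155 (140.3 to 172) and 473 CPM (435 to 514). Cx3cr1, the fractalkine receptor that is gained as monocytes settle, was at 462 (436 to 489.6) and 268 CPM (239 to 299). Both genes moved the same way in the other groups. After thinning, a Cd44 UMI was found in 28.2% and 44.4% of Ly6c2 C1q cells, 18.7% and 46.4% of macrophages and 51.7% and 66.9% of monocytes. For Cx3cr1 the shares were 65.9% and 45.6%, 72.0% and 46.7%, and 58.5% and 46.7%.

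Macrophage maturation genes had a median log2 ratio of -0.03 over 23 genes, with 2 higher (Mrc1 and Maf) and 0 lower past 2-fold. Over all genes, 1.48% were higher and 1.33% lower. Mrc1, the mannose receptor, was at 51.1 (42.7 to 60.8) and 166 CPM (144 to 191), and Apoe at 14463 and 9430.1. After thinning, a Mrc1 UMI was found in 8.18% and 17.8% of Ly6c2 C1q cells, 26.0% and 44.8% of macrophages and 4.39% and 2.57% of monocytes. Of 15 genes of lipid-associated macrophages, Fabp4 was higher (12.8 and 54.6 CPM) and Spp1 lower past 2-fold. Spp1 (osteopontin) was at 370.3 and 45.2 CPM, but 686 of its 927 Crtc2+/+ UMIs came from 1 cell. Its log2 ratio of -2.78 was -1.61 without each library's highest cell and -0.89 without called doublets. Trem2, a lipid receptor of this state, was at 179 (162 to 196) and 92.1 CPM (75.6 to 111). Of 10 genes of immune suppression, Havcr2 (TIM-3) was lower past 2-fold, at 155 and 71.6 CPM, and Il10 higher through the 1 cell named above. Cd274 (PD-L1) was at 82.7 and 126 CPM, and Arg1 had 4 and 3 UMIs.

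The genes furthest above in the Crtc2-/- cells included several of resident macrophages and iron handling. Spic, a transcription factor of iron-recycling macrophages, was at 7.19 CPM (16 of 220 cells) and 70.8 CPM (30 of 90). Slc40a1, the iron exporter ferroportin, was at 1.598 CPM (2 cells) and 66.5 (14 cells). Id3, a regulator of Kupffer cell identity, was at 24.4 CPM (15 cells) and 118 (26 cells). Of 14 Kupffer cell genes 5 had at least 20 UMIs, and these were higher past 2-fold (Slc40a1, Spic, Id3, Hmox1 and Nr1h3), but a gene seen mainly in 1 library had to differ to pass that minimum. Over all genes, 1.48% were higher past 2-fold. Hmox1, which degrades heme, had 66 of 191 Crtc2-/- UMIs in 1 cell. The defining Kupffer genes Clec4f and Vsig4, which the rule limits, had 0 Crtc2+/+ UMIs and 1 and 2 Crtc2-/- UMIs, and Timd4 and Marco, which it does not use, were at 0 in both. The summed level of the 14 genes was 132 and 545 CPM in the Ly6c2 C1q cells, 249 and 381 in monocytes and 145 and 1000.5 in macrophages. In the macrophages Slc40a1 was at 16.5 and 218 CPM. Spic too was higher in Crtc2-/- macrophages than in the Crtc2-/- Ly6c2 C1q cells, which stood at position 0.64.

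Cd38, an enzyme that consumes NAD, was at 23.97 CPM (29 of 220 cells) and 135 (48 of 90), and Adgrl3, an adhesion receptor, at 77.9 (54) and 349 (46). After thinning, an Adgrl3 UMI was found in 11.4% and 32.2% of Ly6c2 C1q cells, 12.9% and 42.6% of macrophages and 11.7% and 15.8% of monocytes. Igf1, Ptprm and Clec10a, the last a lectin of dendritic cells and macrophages, were at 52.9, 52.9 and 56.3 CPM in the Crtc2-/- and 4.79, 6.39 and 9.19 in the Crtc2+/+ cells. In the Crtc2-/- library Cd38, Igf1, Ptprm and Adgrl3 were higher in macrophages than in the Ly6c2 C1q cells. Their positions between monocytes and macrophages were 0.63, 0.49, 0.23 and 0.70. Saa3, an acute phase protein, and Cd209a, a lectin, rested on few cells. Of 167 Crtc2-/- Saa3 UMIs 106 were in 1 cell, and of 75 Cd209a UMIs 45.

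Markers of other cell types differed between genotypes, in part through 1 cell. S100a8 and S100a9, the calgranulins of neutrophils, had 2 and 0 UMIs in the Crtc2+/+ cells and 157 and 254 in the Crtc2-/- cells, of which 149 and 245 were in 1 cell that was called a doublet. Crtc2-/- T and B cells held 140.4 and 82.99 CPM of S100a9 and Crtc2+/+ ones 1.28 and 0.594. The T and B cell values differed, so they do not fix a free RNA level for S100a9. Over the 9 neutrophil genes the summed level was 105 and 499 CPM, and over 7 endothelial genes 27.6 and 174. The 5 endothelial genes with at least 20 UMIs (Pecam1, Kdr, Stab2, Cdh5 and Ptprb) were all higher past 2-fold. Over all genes, 1.48% were higher and 1.33% lower, but a gene seen mainly in 1 library had to differ to pass that minimum. The summed endothelial level was 65.3 and 392 CPM in macrophages and 179 and 105 CPM in monocytes. In 1 Crtc2-/- cell each were 29 of 32 Stab2, 15 of 24 Kdr and 17 of 23 Ptprb UMIs. Pecam1, which leukocytes also carry, was seen in 26 cells and had a log2 ratio of 1.21 without the highest cell. Over 11 dendritic cell genes the summed level was 157 and 369 CPM, and of the 7 with at least 20 UMIs 3 were higher past 2-fold (Cd209a, Clec10a and Siglech) and 0 lower. The summed level of 6 natural killer cell genes went the other way, 90.3 and 8.53 CPM. Of the 4 with at least 20 UMIs, 2 were lower past 2-fold and 0 higher. The part of endothelial and dendritic cell transcripts in the other differences was not tested beyond the settings given. Without all cells that held transcripts of such types, with 193 and 81 cells, 109 genes were higher and 121 lower.

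Only a few genes were higher in the Ly6c2 C1q cells than in both other groups. Of genes at 50 CPM or more, 1 of 3450 in the Crtc2+/+ library and 13 of 3461 in the Crtc2-/- library were at least 2-fold above monocytes and above macrophages, and 0 were below both. The 1 gene in common was Ly6a (Sca-1; GRCm38 chr15:74994877-74998031, minus strand), a surface protein of the same family as Ly6c2 that interferon can induce. It was at 86.7 CPM in monocytes, 201 in Ly6c2 C1q cells (184 to 219) and 93.9 in macrophages of the Crtc2+/+ library. In the Crtc2-/- library it was at 121, 462 (424 to 503) and 211 CPM. It was present in 99 of 220 and 59 of 90 cells, with at most 42 and 52 UMIs in 1 cell. T cells held 489 and 349 CPM and B cells 397 and 463, so lymphocytes carry it too. Ly6a belongs to the family of Ly6c2, which the rule used, and a split of reads between Ly6 copies was not tested. Between genotypes its log2 ratio was 1.16, and 1.10 to 1.24 under the other settings. Of the other 12 genes in the Crtc2-/- library, Siglech, Grm8, Cacna1e and Mctp2 were each in 3 cells, while Spon1 was in 51 of 90 cells at 214 CPM, against 62.01 in monocytes and 92.3 in macrophages.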

How the data were processed

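The authors deposited raw UMI counts for each gene in each barcode; Cell Ranger 7.1.0 is named per the file headers. Build mm10 and Seurat are named per the submitters' processing notes, with no account of what Seurat did. Barcodes were kept with at least 500 UMIs, 250 genes and at most 20% mitochondrial UMIs (9612 of 9707 and 9174 of 9242; median depth before this 7195 and 6688 UMIs). Gene identifiers matched GENCODE (GRCm38) for 32158 of 32285 features. Scrublet (scanpy 1.11.5) called 263 and 273 barcodes doublets, under the expected 7.69% and 7.34%; they were kept, and removed as an alternative.

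UMIs were summed over the cells of each group and scaled to CPM. Intervals are exact Poisson for CPM, Clopper-Pearson for shares and exact conditional for ratios, at 95%. Log2 ratios are of CPM + 10, which understates the change of low genes; the script was checked on simulated data. T cells, B cells, neutrophils and hepatocytes were gated for the free RNA level. Named genes were the 10 highest and 10 lowest between genotypes and the 5 furthest each way from both other groups, among genes with at least 50 CPM, a UMI in at least 5% of cells and at least 20% of the highest level in those gates, besides list members. Some list members are not reported here. The cells, lists and rules were chosen with earlier results of these data known. Python 3.11.15, numpy 2.4.6, scipy 1.17.1 and pandas 2.3.3 were used.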

Additional observations from a re-analysis of the deposited data

How the results depend on the processing

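Of 20 genes followed across settings, 0 changed sign. Of 17 list medians, those of complement, lipid-associated macrophages and macrophage maturation changed sign under at least 1 setting. Counts depended most on the pseudocount: with 1 CPM in place of 10, 291 genes were higher and 410 lower between genotypes, 506 and 404 against monocytes and 474 and 638 against macrophages in the Crtc2+/+ library, and 489 and 369, and 265 and 629, in the Crtc2-/- library. With at least 2 UMIs of Ly6c2 and of Ccr2 the cells were 1.30% and 0.632% of barcodes, with positions of 0.46 and 0.43. Then 112 Crtc2+/+ genes were below monocytes, 219 above and 183 below macrophages, 224 Crtc2-/- genes were below macrophages, and the medians of lipid-associated macrophage genes and transcription factors were -0.53 and 0.31. Against macrophages with no Ccr2 UMI, 136 Crtc2+/+ genes were lower, 208 Crtc2-/- genes were higher and 301 lower, and the Crtc2-/- position was 0.41. In cells of 5000 to 20000 UMIs the shares were 3.07% and 1.55%, and 206 Crtc2-/- genes were below macrophages. Crtc2-/- genes above macrophages numbered 70 without called doublets and 66 without cells that held transcripts of other types, where the classical monocyte median was 0.023. Between genotypes 87 genes were higher without each gene's highest cell. The last 2 settings were chosen after seeing the data, and the cause of each change was not tested. No paired analysis was possible because each genotype had 1 library. Depth limits the low genes, since 1 UMI is worth 0.399 CPM in the Crtc2+/+ and 0.853 in the Crtc2-/- cells.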

Other observations

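Of 10 genes of glycolysis and hypoxia 0 passed 2-fold between genotypes in the Ly6c2 C1q cells, with a median log2 ratio of -0.10. Over all genes, 1.48% were higher and 1.33% lower past 2-fold. Slc2a1, the glucose transporter, was at 41.1 CPM (33.6 to 49.9) and 19.6 CPM (12.4 to 29.4). All 10 stood below the C1q-low monocytes in both libraries, with medians of -0.23 and -0.45. Of 9 complement genes 0 passed 2-fold. C3ar1, the receptor for the C3a fragment, was at 198 (181 to 216) and 104 CPM (86.4 to 124), and C5ar1, the receptor for C5a, at 70.7 (60.7 to 81.9) and 125 (106 to 147).

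Of 13 Fc and scavenger receptors, Mrc1 was the 1 gene past 2-fold. Fcgr2b, the inhibitory Fc receptor, was at 322 (299.7 to 345) and 543 CPM (502 to 587), while Fcgr1, the high-affinity activating receptor, was at 330.3 (308 to 354) and 241 (214 to 271). Of 14 chemokine receptors and adhesion genes 1 was higher past 2-fold, Cd44. Of 14 immediate early and heat shock genes 1 was higher, Ier3, and 0 were lower. Of 10 nonclassical monocyte genes 4 were higher (Nr4a1, Treml4, Adgre4 and Cd300ld) and 0 lower, against 1.48% and 1.33% of all genes, and their summed level was 684 and 1005 CPM. In macrophages it was 646 and 1347 CPM. Adgre4, an adhesion receptor of patrolling monocytes, was at 99.9 CPM in 86 of 220 cells and 264 in 61 of 90, and at 21.2 and 281 CPM in the Ly6c2-negative macrophages.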
